A study of Rattus norvegicus with 12 samples.

Results

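A set of 9 transcription factor genes of the myeloid and lymphoid lineages was followed through the leukocytes of the rat liver: Spi1, Cebpb, Irf8, Batf3, Irf4, Tcf4, Irf1, Stat4 and Stat5a. They were chosen by name, as regulators that place a cell in the macrophage, dendritic, B, T or natural killer (NK) lineage and as regulators the study discussed for strain differences in liver myeloid cells. Of these 9 genes, 8 had a row among the 32883 genes of the count tables (Spi1 ENSRNOG00000012172, Cebpb ENSRNOG00000057347, Irf8 ENSRNOG00000017869, Batf3 ENSRNOG00000003716, Irf4 ENSRNOG00000061070, Tcf4 ENSRNOG00000012405, Irf1 ENSRNOG00000008144 and Stat5a ENSRNOG00000019496), and Stat4 was not analysed here.

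The cells came from the livers of healthy male Dark Agouti (DA) and Lewis (LEW) rats, and 12 libraries were used. Total liver homogenate (TLH), a suspension of all cells freed by collagenase, gave 2 DA and 2 LEW libraries with version 2 chemistry. A suspension enriched for immune cells gave 1 DA and 1 LEW library with version 3 chemistry, so that in this preparation a strain is 1 rat and no strain test was made within it. Nuclei gave 2 DA and 2 LEW libraries with version 3 chemistry, and 2 Visium sections came from Wistar rats. The labels gave an age of 8 to 10 weeks for the DA and LEW rats, while the sample names carried with the TLH data gave 10 weeks for DA and 13 weeks for LEW. The study's methods give an older age and state that the strains were matched by age, so the ages of the TLH rats could not be settled, and the part of age in strain differences was not tested. Sums of unique molecular identifiers (UMIs, counted molecules) over all barcodes ran from 61441846 to 92484173 per TLH library, were 48255870 and 60005133 in the immune-enriched libraries, and ran from 8039397 to 15186970 in the nuclei. The cells kept held fewer, 9593027 to 19850024 per TLH library, 9717183 and 40028899 in the immune-enriched libraries and 4995131 to 10860039 in the nuclei.

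A lineage factor is a protein that binds the enhancers of the genes of one cell type and keeps them active. PU.1, the product of Spi1, opens myeloid and B cell enhancers and recruits the interferon regulatory factors Irf4 and Irf8, which bind DNA weakly alone. Irf8 with Batf3 makes type 1 conventional dendritic cells (cDC1), Tcf4 (E2-2) makes plasmacytoid dendritic cells (pDC), Cebpb takes part in macrophage and monocyte gene programmes and in the acute-phase response of hepatocytes, and Irf1 and the STAT proteins carry signals from interferon and cytokine receptors to the nucleus.

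STAT dimers bind the gamma-activated site TTCNNNGAA. Among the 7 genes with a RefSeq promoter entry (Spi1 had none), 3 held this motif in the 250 bases before the transcription start on GRCr8: Irf8, Irf1 and Batf3. Their promoters are shown because Irf1 and Irf8 are known targets of interferon signalling and Batf3 is the partner of Irf8, with the motif in capitals and each sequence 5′ to 3′ on the + strand. Irf8 (chr19:65699034-65699283) held the motif at -180 and -161 from the start, Irf1 (chr10:38417685-38417934) at -142, and Batf3 (chr13:105220532-105220781) at -228.
Irf8: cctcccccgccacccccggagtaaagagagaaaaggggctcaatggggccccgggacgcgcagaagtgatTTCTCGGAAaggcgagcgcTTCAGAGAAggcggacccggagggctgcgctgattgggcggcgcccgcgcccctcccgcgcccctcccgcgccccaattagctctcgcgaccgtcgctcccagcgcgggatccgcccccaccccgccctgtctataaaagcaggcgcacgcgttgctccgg
Irf1: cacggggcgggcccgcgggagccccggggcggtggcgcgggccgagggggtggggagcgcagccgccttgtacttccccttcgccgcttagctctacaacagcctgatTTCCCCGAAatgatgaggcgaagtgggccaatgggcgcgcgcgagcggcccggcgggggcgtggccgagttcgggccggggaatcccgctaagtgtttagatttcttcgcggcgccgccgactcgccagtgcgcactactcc
Batf3: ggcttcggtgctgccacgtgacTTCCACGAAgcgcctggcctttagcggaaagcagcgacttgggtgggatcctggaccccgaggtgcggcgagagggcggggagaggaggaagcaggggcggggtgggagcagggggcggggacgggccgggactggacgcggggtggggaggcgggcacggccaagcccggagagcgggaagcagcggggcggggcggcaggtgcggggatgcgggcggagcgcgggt
The motif was searched on both strands and occurred in 7.67% of the 33469 RefSeq promoters of this length. None of the 7 promoters held the core of an interferon-stimulated response element (in 3.41% of all promoters), GAGGAAGT (a PU-box bound by PU.1, 2.04%) or TTGCNNAA (a C/EBP site, 9.22%). These matches describe the letters of the window and no binding was measured.

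Cells were grouped without the 8 genes, and clusters were named from marker lists. In TLH and in the immune-enriched libraries 7 leukocyte classes could be named: Kupffer-like, Lyz2 myeloid-like, conventional dendritic cell (cDC)-like, pDC-like, B-like, T-like and NK-like. A TLH library held 219 to 394 Kupffer-like cells, 60 to 145 NK-like cells and 15 to 60 cells of each other class. An immune-enriched library held 48 and 85 Kupffer-like cells and 16 to 128 of each other class. In the nuclei the Kupffer-like class alone could be named, with 28 to 60 nuclei per library. In TLH the cDC-like cells were cluster 5 of the leukocytes, whose 10 leading genes held 2 Lyz2 myeloid markers against 1 cDC marker. In the immune-enriched libraries they were cluster 7, whose 30 leading genes against all other cells held 4 Lyz2 myeloid and 3 cDC markers. Each cell was also given the list with the most marker genes detected in it, at least 3 and more than any other list. By this rule 83 of the 156 TLH cells and 38 of the 66 immune-enriched cells were Lyz2 myeloid, against 38 and 19 that were cDC. Values of cDC-like cells are therefore those of these clusters. Of the Kupffer-like nuclei, 112 were of a cluster that held 1 Kupffer marker against the other leukocyte nuclei and 8 against all other nuclei. Levels are in CPM (counts-per-million), the UMIs of a gene over all UMIs of the cells of a class in a library, and they are compared within a gene, not between genes. RNA of hepatocyte genes was present in the TLH leukocytes: a list of 19 hepatocyte genes summed to 71027 and 87140 CPM in DA and 56283 and 61327 CPM in LEW Kupffer-like TLH cells, against 2208 CPM in the DA and 6897 CPM in the LEW immune-enriched library.

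**Figure D1:**
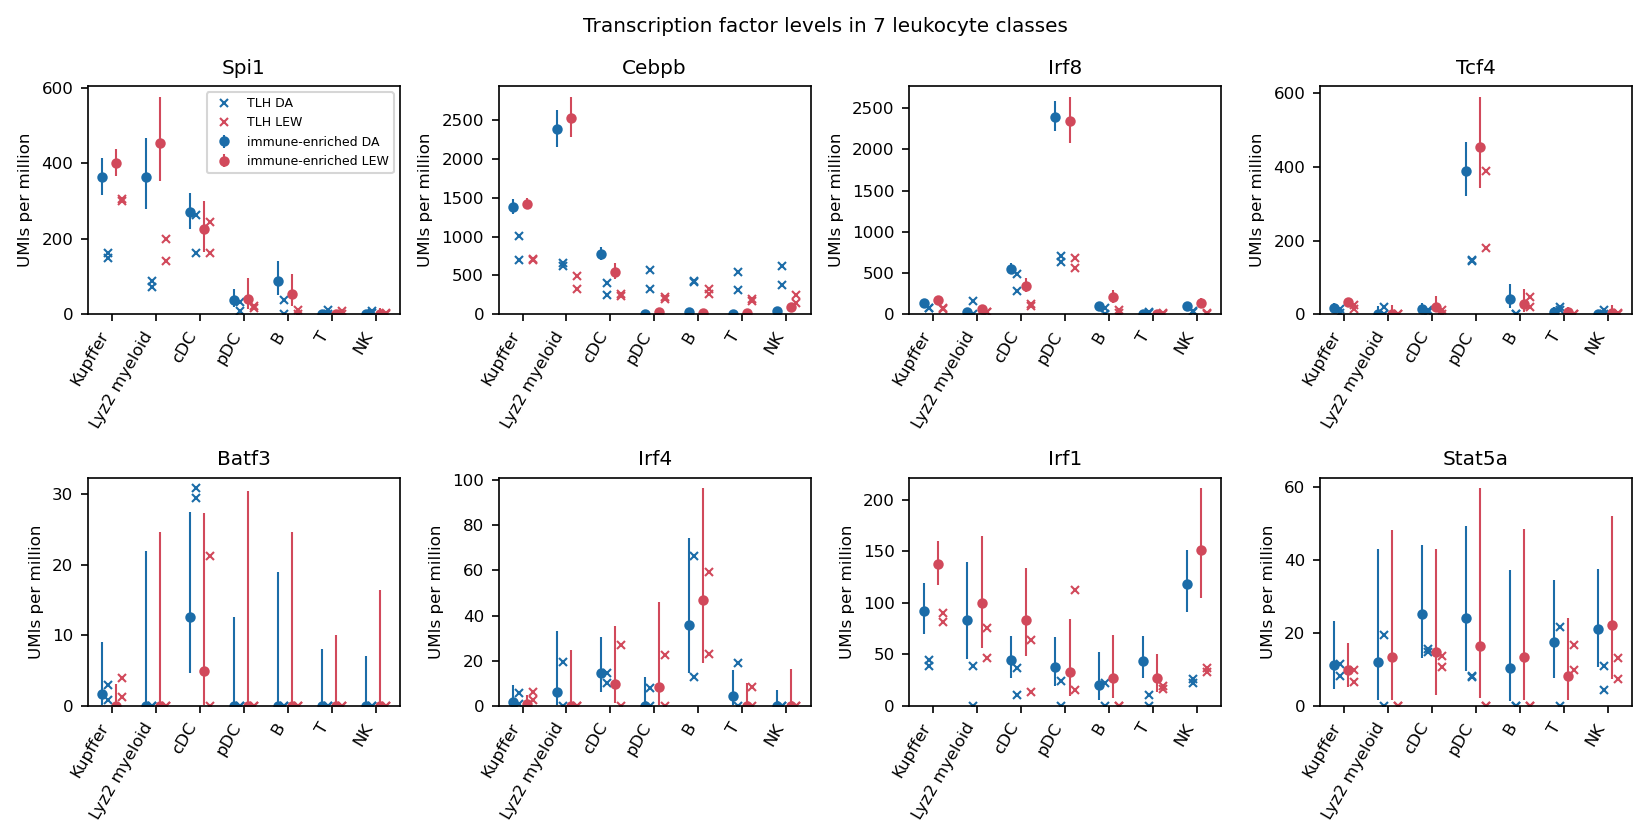
Levels of the 8 transcription factors in 7 leukocyte classes, in CPM on the vertical axes. Circles are the immune-enriched libraries with 95% Poisson intervals, crosses the TLH libraries, blue DA and red LEW. Spi1 stood high in Kupffer-like, Lyz2 myeloid-like and cDC-like cells, and Irf8 and Tcf4 stood highest in pDC-like cells.

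Spi1 was carried by the 3 phagocyte classes. In Kupffer-like cells it measured 148 and 162 CPM in the 2 DA TLH libraries, 301 and 306 CPM in the 2 LEW TLH libraries, and 363 and 401 CPM in the DA and LEW immune-enriched libraries. In cDC-like cells it measured 162, 262, 163 and 245 CPM in TLH (DA 1, DA 2, LEW 1, LEW 2) and 271 and 226 CPM in the immune-enriched libraries. In Lyz2 myeloid-like cells it measured 73.3, 87.3, 200.5 and 140.2 CPM in TLH, on 4 to 16 UMIs, and 363 and 454 CPM in the immune-enriched libraries. T-like and NK-like cells lay at the other end: neither immune-enriched library had a Spi1 UMI in either class. A count of 0 was taken to allow 3 UMIs, a lower bound than the Poisson interval's end, or 5.72 CPM in the DA and 13.3 CPM in the LEW NK-like cells. B-like cells, a lineage in which PU.1 is also known to act, had 87.5 and 53.5 CPM in the immune-enriched libraries and 0 to 3 UMIs in each TLH library. pDC-like cells had 37.6 and 41.2 CPM in the immune-enriched libraries.

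Cebpb, a basic leucine zipper factor of monocytes and macrophages, was highest in Lyz2 myeloid-like cells of the immune-enriched libraries, with 2385 CPM in DA and 2531 CPM in LEW. Kupffer-like cells followed with 1383 and 1424 CPM and cDC-like cells with 779 and 549.5 CPM. The lymphoid classes and pDC-like cells stood far below, at 25.7 and 20.1 CPM in B-like, 45.8 and 93.4 CPM in NK-like and 6.83 and 24.7 CPM in pDC-like cells, and T-like cells had 0 UMIs in DA and 16.4 CPM in LEW. In TLH the order was another: Kupffer-like cells held 698 to 1003 CPM, above Lyz2 myeloid-like cells at 327 to 659 CPM, and T-like cells held 176 to 544 CPM. The hepatocyte list summed to 79903 to 96600 CPM in TLH T-like cells and to 1627 and 14584 CPM in those of the immune-enriched libraries, and Cebpb itself was at 334 to 789 CPM in hepatocyte-rich TLH cells. The part of hepatocyte RNA in the TLH levels was not tested.

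Irf8, the interferon regulatory factor of dendritic cells and macrophages, had its highest level in pDC-like cells in all 6 libraries. It measured 702, 638, 682 and 564.5 CPM in TLH (DA 1, DA 2, LEW 1, LEW 2) and 2398 and 2349 CPM in the DA and LEW immune-enriched libraries. cDC-like cells came next with 279 and 488 CPM in DA and 94.97 and 128 CPM in LEW TLH libraries and 548 and 343 CPM in the immune-enriched libraries. Kupffer-like cells held a lower and even level, 67.2 to 80.5 CPM in TLH, 139 and 173 CPM in the immune-enriched libraries and 174 to 261 CPM in the nuclei. NK-like cells held 99.2 and 142 CPM and B-like cells 97.8 and 207 CPM in the immune-enriched libraries. T-like cells held 4 Irf8 UMIs in DA and 0 in LEW in the immune-enriched libraries.

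Tcf4, the E protein that sets pDC identity, was highest in pDC-like cells in all 6 libraries. It measured 147 and 143 CPM in DA TLH, 388 and 181 CPM in LEW TLH, and 389.5 and 453 CPM in the DA and LEW immune-enriched libraries. B-like cells, in which E proteins are also known to act, held 41.2 and 26.7 CPM in the immune-enriched libraries, and Kupffer-like cells 16.1 and 33.0 CPM. The level outside the leukocytes was not zero: endothelial cells of the immune-enriched libraries held 117 CPM over both libraries.

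Batf3, the partner of Irf8 in cDC1, and Irf4, the factor of B cell activation and of cDC2, were both at the edge of detection. Batf3 had 4, 6, 0 and 2 UMIs in cDC-like TLH cells and 6 and 1 UMIs in the immune-enriched libraries. The only other leukocyte class with Batf3 UMIs was Kupffer-like, with 1 to 3 UMIs in each TLH library, 1 and 0 in the immune-enriched libraries and 1 UMI in 1 of the 4 nuclei libraries. Irf4 had 7 UMIs in B-like cells of each immune-enriched library (36.0 and 46.8 CPM) and 1 to 6 UMIs in each TLH library, 7 and 2 UMIs in immune-enriched cDC-like cells, and none in NK-like cells of any library. Both genes fell below the count filter of every test.

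Irf1, an early target of interferon gamma, was spread over several classes. NK-like cells held 118 and 151 CPM, Kupffer-like cells 91.9 and 138 CPM and Lyz2 myeloid-like cells 83.3 and 100.2 CPM in the DA and LEW immune-enriched libraries. B-like cells held 20.6 and 26.7 CPM, and endothelial cells 57.8 CPM over both. Stat5a, which carries signals of growth factor and common gamma chain cytokine receptors, had 2 to 12 UMIs per class in each immune-enriched library, from 8.19 CPM in LEW T-like to 25.2 CPM in DA cDC-like cells. In TLH its UMIs passed 3 per library in Kupffer-like cells alone, with 5 to 10. At this depth no order of the classes was detectable for Stat5a.

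To ask how far these levels differ beyond the spread between libraries, each class was set against the mean of the other 6 in a fit of the 4 TLH and 2 immune-enriched libraries, with edgeR's quasi-likelihood test and Benjamini-Hochberg adjustment over 2921 genes. Cells of a class were grouped by other genes of the same cells, so the test adds a spread to the levels above and no independent evidence of class identity. Of the 8 genes, 5 passed the count filter, Tcf4 only through its pDC-like sums, and 16 of their 35 contrasts passed an adjusted p of 0.05. Of all genes tested, 43.8% passed for Kupffer-like, 21.4% for Lyz2 myeloid-like, 22.1% for cDC-like, 23.5% for pDC-like, 16.0% for B-like, 22.4% for T-like and 15.1% for NK-like cells.

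Spi1 was higher in Kupffer-like (log2 difference 3.50 ± 0.21 SE, adjusted p = 1.40e-18), cDC-like (3.18 ± 0.26, 7.96e-14) and Lyz2 myeloid-like cells (2.95 ± 0.28, 9.24e-12) in the edgeR test, and lower in T-like and NK-like cells. The T-like and NK-like calls were lost in the immune-enriched libraries alone, where neither class had a Spi1 UMI (edgeR adjusted p = 1 for both). The steps among these 3 classes did not pass the threshold (Kupffer-like minus cDC-like 0.28, interval -0.21 to 0.78, and cDC-like minus Lyz2 myeloid-like 0.19, interval -0.38 to 0.76). The step from Lyz2 myeloid-like down to B-like cells did (2.34, edgeR adjusted p = 6.72e-06), and so did the step from pDC-like to NK-like cells (3.11, edgeR adjusted p = 0.00105). Of all genes, 28.6%, 19.6%, 21.1% and 23.3% passed in these 4 steps.

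Irf8 fell in steps from pDC-like to cDC-like (1.59 ± 0.37 SE, edgeR adjusted p = 0.00146) and from cDC-like to Kupffer-like cells (1.54 ± 0.37, edgeR adjusted p = 0.00169). It was lower in T-like cells than in the other classes (-4.17, edgeR adjusted p = 2.98e-06). Tcf4 in pDC-like cells exceeded the next class, B-like, by 3.26 ± 0.39. It passed the count filter only through its pDC-like sums, with at most 45.5 CPM in a library of any other class of this fit. Its class contrasts are thus no support beyond the levels. In the steps from pDC-like to cDC-like and from pDC-like to B-like cells 18.6% of all genes passed. Cebpb was higher in Lyz2 myeloid-like (2.11, edgeR adjusted p = 0.00428) and Kupffer-like cells (1.87, edgeR adjusted p = 0.00198), and Irf1 in Kupffer-like (1.37, edgeR adjusted p = 8.93e-07) and NK-like cells (0.80, edgeR adjusted p = 0.0240), but for neither gene did a step between neighbouring classes pass the threshold. Classes were also drawn by the rule of marker genes detected per cell (marker classes) in place of clusters. Then 2 calls turned, Irf8 in cDC-like cells to -0.10 and Tcf4 in Lyz2 myeloid-like cells from -3.32 to 0.75. Spi1 in cDC-like cells fell from 3.18 to 0.07 and was no longer called (edgeR adjusted p = 0.933). That rule took 686 hepatocyte-rich TLH cells and 470 hepatocyte-rich immune-enriched cells into the cDC class. In TLH alone Cebpb in Lyz2 myeloid-like cells gave 0.43 and was not called (edgeR adjusted p = 0.0703).

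Conventional dendritic cells hold a cDC1 and a cDC2 branch, and the cDC-like cells were split by which branch's markers had more UMIs (Xcr1, Clec9a, Cadm1, Wdfy4 and Tlr3 against Clec10a, Sirpa, Cd209a, Tmem176a and Tmem176b). This left 21 cells on the cDC1 side and 44 on the cDC2 side in the immune-enriched libraries, with 1 tie. Irf8 and Cebpb stood on opposite sides. Irf8 was at 1163 CPM on the cDC1 side (95% Poisson interval 1038 to 1298) and 29.9 CPM on the cDC2 side (15.5 to 52.3). Cebpb was at 47.7 CPM on the cDC1 side (25.4 to 81.6) and 1154 CPM on the cDC2 side (1051 to 1264). Both held in each library, with Irf8 at 1202 against 26.4 CPM in DA and 1029 against 36.7 CPM in LEW, and Cebpb at 9.46 against 1392 CPM in DA and 180 against 691 CPM in LEW. These intervals cover counting error alone, and with 1 rat per strain no test was made.

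Spi1 was at 305 CPM (243 to 377) on the cDC1 side and 224 CPM (180 to 276) on the cDC2 side, with overlapping intervals. Irf1 lay lower on the cDC1 side, at 14.7 CPM (4.00 to 37.6) against 84.8 CPM (58.7 to 118). Batf3 gave 5 UMIs on the cDC1 side and 2 on the cDC2 side, Irf4 gave 1 and 8, and Stat5a gave 7 and 8, counts whose intervals overlapped. In TLH, with 46 cDC1-side and 88 cDC2-side cells and 22 ties, Irf8 measured 658 against 125 CPM and Batf3 7 against 3 UMIs, while Cebpb measured 244 against 345 CPM. On the cDC2 side the Lyz2 myeloid list stood higher than on the cDC1 side. In the immune-enriched libraries the Lyz2 myeloid list summed to 9777 CPM on the cDC1 side and 26724 CPM on the cDC2 side. The Kupffer list summed to 371 and 3540 CPM. The cDC list, without the genes of the split, held 7 genes (Flt3, Cst3, Naaa, Basp1, Ciita, Ccr7 and Fscn1) and summed to 20882 and 1987 CPM. With no cDC2 marker left in it, this sum cannot tell whether the cDC2 side is dendritic. The Cd74 gene was at 22562 and 15850 CPM. In TLH the Lyz2 myeloid list was at 5747 and 9726 CPM and the cDC list at 13281 and 3492 CPM. The names of the sides thus stand for the split alone. The Lyz2 gene itself was at 2154 CPM on the cDC1 side and 12218 CPM on the cDC2 side of the immune-enriched libraries, and the dendritic receptor gene Flt3 gave 13 and 3 UMIs. The part of Lyz2 myeloid cells in the Cebpb and Irf8 levels was not tested.

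**Figure D2:**
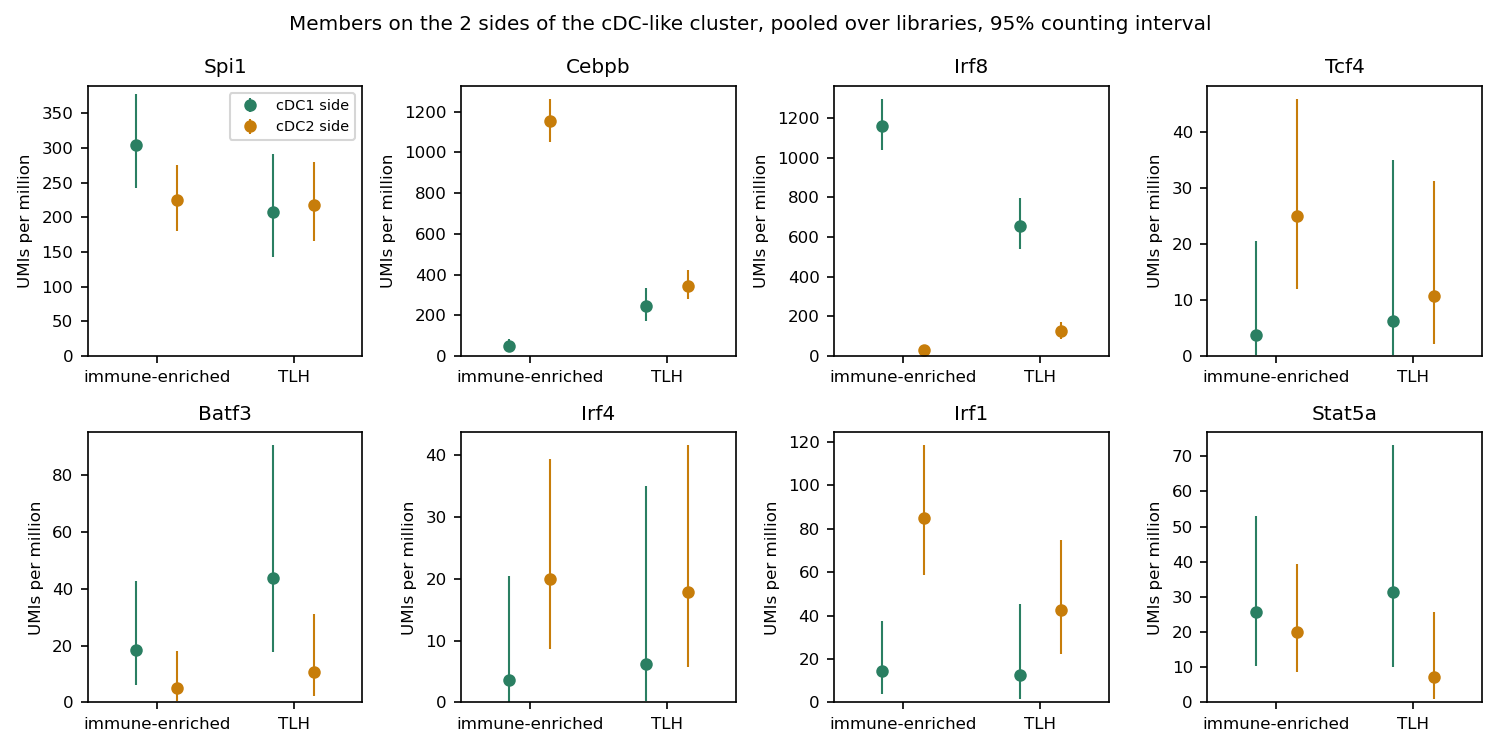
Levels of the transcription factors in cDC1-side and cDC2-side cells of the cDC-like clusters, in CPM, with 95% Poisson intervals. In the immune-enriched libraries Irf8 stood at 1163 on the cDC1 side and 29.9 on the cDC2 side, and Cebpb at 47.7 and 1154.

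The strain comparison asked whether these regulators differ between DA and LEW rats within a class. It was made in Kupffer-like TLH cells, with 2 rats per strain, by edgeR's quasi-likelihood test with Benjamini-Hochberg adjustment over 6054 genes. P-values measure the spread between these rats only. The mitochondrial limit of kept cells differed by strain, at 30% and 20% in the DA and 40% in both LEW libraries. Of the 8 genes, 5 passed the count filter, and 2 of the 5 were called, Spi1 and Irf1, both higher in LEW. Among all genes tested, 8.08% were called, 3.37% higher and 4.71% lower in LEW.

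Spi1 measured 148 and 162 CPM in DA and 301 and 306 CPM in LEW Kupffer-like TLH cells, on 103, 199, 247 and 237 UMIs. Both LEW libraries lay above both DA libraries, and the log2 fold change of LEW over DA was 0.92 ± 0.18 SE (95% interval 0.55 to 1.29, edgeR adjusted p = 0.00135). Irf1 measured 44.6 and 38.4 CPM in DA and 90.1 and 81.5 CPM in LEW, on 31, 47, 74 and 63 UMIs. Its groups did not overlap either, with a log2 fold change of 1.03 ± 0.23 SE (0.55 to 1.5, edgeR adjusted p = 0.00482). Without the second DA library Irf1 missed the threshold (log2 fold change 0.90, edgeR adjusted p = 0.0573), with the stricter cell filter it missed it too (0.99, edgeR adjusted p = 0.0614), and DESeq2 gave it an adjusted p of 0.110 against 0.0152 for Spi1. With the 5% of cells of highest UMI count left out Spi1 missed it (0.67, edgeR adjusted p = 0.101).

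Irf8, which the same question covers, did not follow: it measured 80.5 and 75.1 CPM in DA and 80.3 and 67.2 CPM in LEW (log2 fold change -0.11, interval -0.56 to 0.34, edgeR adjusted p = 0.838). Cebpb measured 698 and 1003 CPM in DA and 707 and 705 CPM in LEW (-0.31, -0.70 to 0.08, edgeR adjusted p = 0.363). Tcf4 rested on 3, 16, 20 and 10 UMIs (0.90, -0.11 to 1.90, edgeR adjusted p = 0.294). Stat5a, on 8, 10, 8 and 5 UMIs, Irf4 and Batf3 were not tested.

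The summed levels of the Kupffer and hepatocyte lists differed between the strains in TLH. A list of 14 Kupffer markers, 13 of them detected in each library, summed to 19902 and 23606 CPM in DA and to 33328 and 35220 CPM in LEW Kupffer-like TLH cells, while the hepatocyte list was lower in LEW, as its sums show. Per 1000 UMIs of the Kupffer list, Spi1 was at 7.44 and 6.88 UMIs in DA and 9.02 and 8.70 UMIs in LEW, and Irf1 at 2.24 and 1.63 UMIs in DA and 2.70 and 2.31 UMIs in LEW, so both LEW libraries stayed above both DA libraries by a smaller step. With the Kupffer list in place of the library size, an alternative chosen after seeing the data, the log2 fold change was 0.31 for Spi1 (edgeR adjusted p = 0.279) and 0.42 for Irf1 (edgeR adjusted p = 0.226), and neither was called. That scaling moved the median log2 fold change of all genes from -0.01 to -0.61, with 45 genes higher and 2106 lower in LEW against 204 and 285. Under it Cebpb (-0.91, edgeR adjusted p = 0.00174) and Irf8 (-0.72, edgeR adjusted p = 0.0237) were called lower in LEW. With genes higher in hepatocyte-rich cells left out of the library size, Spi1 (0.80, edgeR adjusted p = 0.00158) and Irf1 (0.91, edgeR adjusted p = 0.00967) were still called. The content of Kupffer RNA in the class and the strain cannot be told apart in these 4 libraries.

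**Figure D3:**
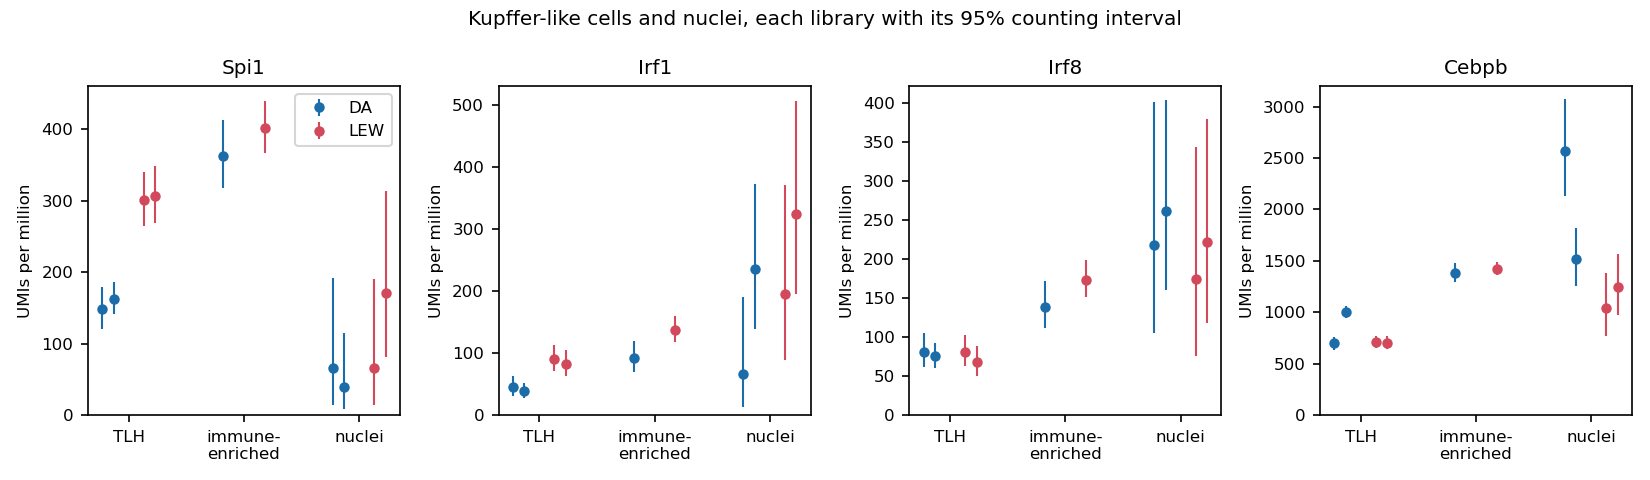
Spi1, Irf1, Irf8 and Cebpb in Kupffer-like cells and nuclei of each library, in CPM with 95% Poisson intervals, DA in blue and LEW in red. In TLH both LEW libraries lay above both DA libraries for Spi1 and Irf1, and the strains overlapped for Irf8.

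Nuclei gave a further pair of libraries per strain, on few UMIs and, by the study's account, from other rats than TLH. In Kupffer-like nuclei Irf1 measured 65.4 and 235 CPM in DA and 196 and 324 CPM in LEW, on 3 to 19 UMIs (log2 fold change 0.73, interval -0.35 to 1.81, edgeR adjusted p = 0.602). Irf8 measured 218 and 261 CPM in DA and 174 and 222 CPM in LEW (-0.22, edgeR adjusted p = 0.884). Cebpb measured 2571 and 1515 CPM in DA and 1044 and 1244 CPM in LEW (-0.76, edgeR adjusted p = 0.372). Both LEW libraries lay below both DA libraries for Cebpb, as they did in hepatocyte-rich nuclei (1723 and 1591 CPM in DA, 861 and 1240 CPM in LEW). The hepatocyte list in Kupffer-like nuclei was higher in LEW (82830 and 50150 CPM) than in DA (37215 and 37466 CPM), the reverse of TLH. The part of hepatocyte RNA in the nuclei levels was not tested. By edgeR 0 of the 3 genes tested were called, 0 reached an unadjusted p under 0.05 and DESeq2 called 0, where 1.53% of all 981 genes were called. Spi1, with 3, 3, 3 and 10 UMIs, was not tested.

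A joint fit of TLH, immune-enriched and nuclei libraries, with platform as a term, took in 5 libraries per strain. Of the 4 genes tested in Kupffer-like cells, Irf1 was called (log2 fold change 0.85 ± 0.22 SE, edgeR adjusted p = 0.0351), where 2.08% of all genes were called, 1.16% higher and 0.921% lower in LEW. Spi1 missed the threshold (0.76 ± 0.23, edgeR adjusted p = 0.0836), Cebpb gave -0.38 (edgeR adjusted p = 0.477) and Irf8 0.02 (edgeR adjusted p = 0.993). The Irf1 call was lost without any 1 of the 4 TLH libraries and without the first DA or the second LEW nuclei library (edgeR adjusted p 0.0704 to 0.223), and without all TLH libraries the log2 fold change was 0.62 (edgeR adjusted p = 0.545). It was also lost with DESeq2 (adjusted p = 0.0523), RLE size factors (edgeR adjusted p = 0.0524), the cells of highest UMI count left out (edgeR adjusted p = 0.131) and marker classes (0.48, edgeR adjusted p = 0.630), and 8 of 19 alternatives kept it. The immune-enriched LEW library lay above the DA library for Spi1 (401 against 363 CPM) and for Irf1 (138 against 91.9 CPM), with 1 rat each. The Kupffer list was higher in LEW there too (74887 against 55684 CPM), as was the hepatocyte list, but for the Kupffer list in Kupffer-like nuclei both LEW libraries lay below both DA libraries (17588 and 17660 against 19566 and 18472 CPM). In the immune-enriched libraries Spi1 per 1000 UMIs of that list was lower in LEW, at 5.36 against 6.51 UMIs, and Irf1 was at 1.84 in LEW against 1.65 UMIs in DA.

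In the other classes no transcription factor passed the threshold. Irf1 had too few UMIs for a test there. Its pooled TLH level, LEW against DA, was 65.2 against 25.4 CPM in Lyz2 myeloid-like, 35.5 against 23.7 in NK-like and 18.1 against 6.86 in T-like cells. These rest on 8 against 4, 15 against 12 and 4 against 1 UMIs. It was 41.8 against 21.2 in cDC-like, 55.2 against 12.1 in pDC-like and 0 against 11.8 CPM in B-like cells. These rest on 7 against 7, 6 against 3 and 0 against 2 UMIs, and in them the libraries of the strains overlapped. Pooled Spi1 was 179 against 82.5 CPM in Lyz2 myeloid-like and 209 against 221 CPM in cDC-like TLH cells. The Lyz2 myeloid list was also higher in LEW Lyz2 myeloid-like TLH cells (19808 and 18598 against 8562 and 7245 CPM). So was the NK list in NK-like TLH cells (25734 and 29019 against 14866 and 14725 CPM). The T and pDC lists were higher in LEW in their own TLH classes too, while for the B and cDC lists the strains overlapped. The part of these lists in the levels was not tested. Across TLH and immune-enriched libraries edgeR called 0 of 2 members tested in Lyz2 myeloid-like, 0 of 3 in cDC-like, 0 of 3 in pDC-like and 0 of 1 in each of B-like, T-like and NK-like cells. The shares of all genes called were 0%, 0.104%, 0.543%, 0%, 0% and 0.244% in that order, and DESeq2 called none of these members. In these fits 1 member reached an unadjusted p under 0.05, Irf8 in cDC-like cells (0.00745 by edgeR). Within TLH, Cebpb in Lyz2 myeloid-like cells was the only member tested (-0.71, unadjusted p = 0.0337, edgeR adjusted p = 0.202, with 6.51% of 952 genes called).

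In cDC-like cells Irf8 was lower in LEW in every preparation, with 94.97 and 128 CPM in LEW against 279 and 488 CPM in DA in TLH and 343 against 548 CPM in the immune-enriched libraries. Its log2 fold change was -1.25 ± 0.35 SE (interval -2.07 to -0.44, edgeR adjusted p = 0.341). Without the DA or without the LEW immune-enriched library it reached -1.81 (edgeR adjusted p = 0.0263) and -1.84 (edgeR adjusted p = 0.0228). In both fits the platform term takes up the remaining immune-enriched library, so the strain difference is that of the TLH libraries only. With no filter on low counts Irf8 passed at -1.38 (edgeR adjusted p = 0.000702), and marker classes gave -3.36 (edgeR adjusted p = 0.0617). The other 9 of 13 alternatives did not pass either. The mix of the cDC1 and cDC2 sides moved with it. On the cDC1 side were 18 of 60 and 22 of 49 cells in DA TLH, 2 of 18 and 4 of 29 in LEW TLH, and 15 of 45 DA and 6 of 21 LEW immune-enriched cells. Within cDC1-side TLH cells Irf8 was at 600 and 727 CPM in DA and at 513 and 476 CPM in LEW, the latter on 5 and 6 UMIs (Poisson intervals 167 to 1198 and 175 to 1037). The part of this mix of sides in the difference was not tested.

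In pDC-like cells the 2 factors that mark the class showed no strain call. Irf8 differed by -0.09 (interval -0.47 to 0.29, edgeR adjusted p = 0.991) and Tcf4 by 0.62 (-0.05 to 1.28, edgeR adjusted p = 0.789), with both LEW TLH libraries above both DA TLH libraries for Tcf4. Cebpb was lower in both LEW than in both DA TLH libraries in pDC-like, B-like, T-like, NK-like and Lyz2 myeloid-like cells, with log2 fold changes across platforms of -0.90, -0.55, -0.65, -0.83 and -0.50, none called. In the immune-enriched libraries the LEW level was instead the higher one in Lyz2 myeloid-like (2531 against 2385 CPM) and NK-like cells (93.4 against 45.8 CPM). The LEW level was also higher there in pDC-like (24.7 against 6.83 CPM) and T-like cells (16.4 against 0 CPM), and lower in B-like cells (20.1 against 25.7 CPM). In NK-like cells 3 of 12 alternatives called Cebpb: without the DA (-1.40, edgeR adjusted p = 0.0168), without the LEW (-1.38, edgeR adjusted p = 0.00655) and without both immune-enriched libraries (-1.38, edgeR adjusted p = 0.0218). An immune-enriched library left alone is taken up by the platform term, so all 3 rest on the TLH libraries only and are not separate evidence. Cebpb was also lower in hepatocyte-rich TLH cells, at 584 and 789 CPM in DA and 352 and 334 CPM in LEW.

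Whether the strain difference of a member differed between Kupffer-like and Lyz2 myeloid-like TLH cells was tested as an interaction. None of 4 members was called by edgeR, where 0.203% of 4915 genes were. On simulated counts this test recovered 0.5% of genes with a log2 change of 1 and 27.5% of those with 2. Irf8 gave the largest of the 4 values, 2.10 ± 0.89 SE (unadjusted p = 0.0183, edgeR adjusted p = 0.866), with 17 of its Lyz2 myeloid-like UMIs in the second DA library and 0 in the first.

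**Figure D4:**
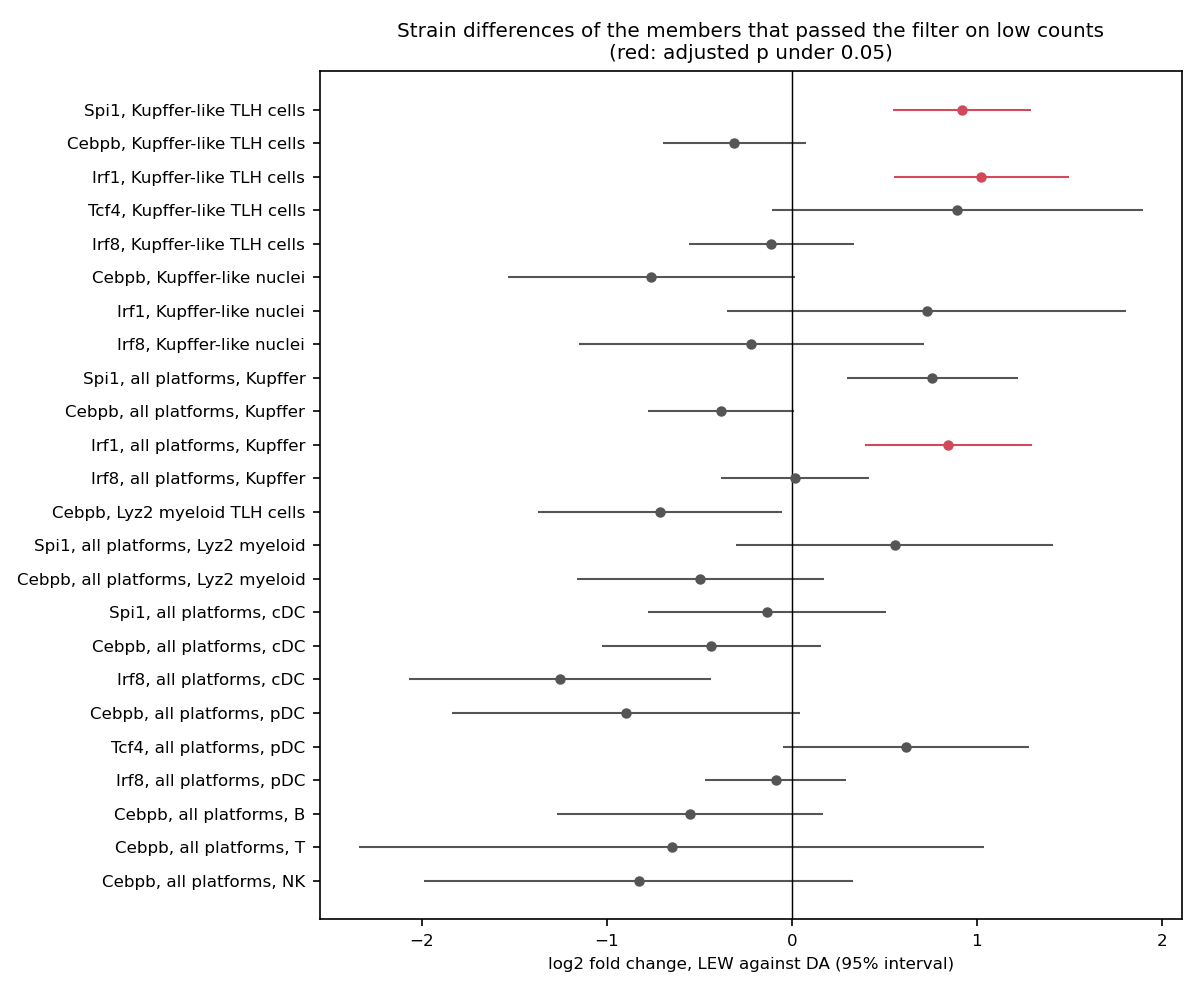
Log2 fold changes of LEW over DA with 95% intervals for every member tested, by class and fit. In Kupffer-like TLH cells Spi1 (0.92) and Irf1 (1.03) lay above 0 with their intervals, and Irf8 (-0.11) spanned it.

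The surroundings of these factors were read from 3 further lists. The members and these lists were chosen with earlier results of these data known, so their counts and medians are not independent evidence. The target gene Il18 was already a LEW-high gene of the study's myeloid strain factor, drawn from the same TLH libraries. The 28 upstream genes are mainly those of cytokine and interferon receptors and their kinases, with Tlr4, Tlr7, Socs1, Socs2, Socs3 and Cish beside them. Csf1r, Cish and Socs2 are on the target list as well. Of the upstream genes, 13 were tested in Kupffer-like TLH cells and 3 were called, all higher in LEW: Ifnar2, a chain of the type I interferon receptor (2.31, edgeR adjusted p = 6.22e-05), and the kinase genes Jak1 (1.05, edgeR adjusted p = 0.0119) and Jak2 (0.71, edgeR adjusted p = 0.0463). Of 29 target genes with a row, 15 were tested and 5 were called, all higher in LEW. The 5 were Gbp2, an interferon-induced GTPase (1.46, edgeR adjusted p = 1.95e-05), the cytokine genes Il18 (1.14, edgeR adjusted p = 0.000430) and Il1b (0.78, edgeR adjusted p = 0.0276), the immunoproteasome subunit Psmb9 (0.71, edgeR adjusted p = 0.0218) and the Fc receptor Fcgr1a (0.70, edgeR adjusted p = 0.0296). Of all genes tested 3.37% were called higher and 4.71% lower in LEW. The Kupffer list was also higher in LEW in these cells, and with it as library size 45 genes were called higher and 2106 lower; its part in these counts was not tested.

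Of 87 other transcription factors, 37 were tested, 1 was called higher and 3 lower in LEW, beside the 3.37% and 4.71% of all genes. The higher one was Nr1h3, the oxysterol receptor LXR alpha of Kupffer cells (0.60, edgeR adjusted p = 0.0375). The lower ones were Cebpa (-0.99, edgeR adjusted p = 0.00180), the AP-1 subunit Junb (-0.93, edgeR adjusted p = 0.0236) and Maf (-0.78, edgeR adjusted p = 0.0313). The hepatocyte list was lower in LEW in these cells as well, and its part in the lower calls was not tested. Median log2 fold changes of the genes tested were 0.90 for the members (the value of Tcf4, not called), 0.43 for upstream genes, 0.53 for targets and 0.04 for the other factors, beside -0.01 over all genes. Across platforms the medians were 0.39, 0.16, 0.43 and 0.04 in that order, beside 0.04 over all genes. Across platforms 1 gene of these lists remained called, Gbp2 (1.40, edgeR adjusted p = 0.000102), where 2.08% of all genes were called, and in the nuclei 0 were called by edgeR, where 1.53% were, with 2 at an unadjusted p under 0.05 among the other factors. Medians in the nuclei were -0.22 for the members, -0.24 for upstream genes, -0.15 for targets and -0.20 for the other factors, beside -0.02 over all genes. Of the genes called in TLH, 7 were tested in the nuclei and none was called. Nr1h3 (0.65), Junb (-0.55) and Maf (-0.21) had the sign they had in TLH, and Ifnar2 (-0.29), Jak2 (-0.29), Il18 (-0.12) and Fcgr1a (-0.20) the opposite one. In Kupffer-like nuclei the hepatocyte list was higher in LEW, and its part in these signs and medians was not tested.

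The genes whose levels ran most like each member were found over the 14 class sums of the 2 immune-enriched libraries, by Pearson's r of log2(CPM + 10) among 4831 genes. The points share libraries and depth, and the values are a description. Spi1 ran with Tifa (0.95), Sirpa (0.94) and Tlnrd1 (0.94), Cebpb with Xdh (0.97), Myof and Aldoa, Irf8 with Pgls (0.92), Gusb and Mpv17l2, and Tcf4 with Kmo (0.97), Ptcra (0.92) and Krtcap2 (0.92). Irf1 ran with Scimp (0.94), Dnpep and Elmo2, and Irf4 with RT1-DOa (0.92), Btla (0.91) and Cdv3 (0.88). For Batf3 and Stat5a, which had few UMIs, the leading genes were AC120486.10 (0.95), Clec10a and Ccl24, and Cd7 (0.81), H2afy and Dut.

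In the 2 Wistar Visium sections, a spot is a small region of tissue that can hold several cell types. Spi1 measured 7.17 and 7.70 CPM, Irf8 9.87 and 13.2 CPM, Irf1 17.1 and 18.6 CPM and Stat5a 10.6 and 12.2 CPM. Cebpb measured 317 and 306 CPM and had a UMI in 94.2% and 92.5% of spots, against 9.27% and 10.1% of spots for Spi1. Irf4 gave 2 and 4 UMIs, Batf3 0 and 1 and Tcf4 4 and 9. Fewer cells of a type and less RNA per cell cannot be told apart in such spots.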

How the data were processed

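The authors deposited raw UMI count matrices made with Cell Ranger 3.1.0 and Space Ranger 1.1.0, per the submitters' processing notes, with the reads mapped, per the study's methods, to the reference Rattus_norvegicus.custom_6.0.98. The deposited counts cover 4 TLH, 2 immune-enriched and 4 nuclei libraries and 2 Visium sections. Cells were kept at 1500 (TLH DA 1), 2000 (TLH DA 2 and LEW) or 1000 UMIs (immune-enriched, nuclei). The limit of mitochondrial UMIs was 30% in TLH DA 1, 20% in TLH DA 2, 40% in both TLH LEW libraries, 50% in immune-enriched cells and 10% in nuclei, so in TLH it differed by strain. The study states 1500 UMIs for LEW, and 2000 was used. This left 6623, 7112, 5457 and 3844 TLH cells, 1163 and 2677 immune-enriched cells and 2205, 2557, 5262 and 2501 nuclei. The TLH and immune-enriched matrices were used without gene or barcode names of their own: their rows took names by position from the gene list of the nuclei, which has the same length. Pairs of nuclei libraries shared 1 to 6 barcodes. Median UMIs per kept cell ran from 1794 to 2545.5 in TLH, were 4090 and 5581 in the immune-enriched libraries, and ran from 1541.5 to 2059 in nuclei. No doublet caller was run. An alternative left out the 5% of cells with the highest UMI counts.

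Libraries were normalized with SCTransform (sctransform 0.4.2, 3000 genes, the members removed), reduced to 15 components (irlba 2.3.5.1), integrated with a Harmony routine and clustered with Seurat 5.3.0 (resolution 0.6, nuclei 2.5, leukocytes again at 1.0). A leukocyte cluster was named when at least 3 markers of a list were among its 30 leading genes both against the other leukocytes and against all other cells. Nuclei were named against all other nuclei only, and there a cluster of 130 nuclei with 6 Kupffer markers, led by hepatocyte genes among leukocyte nuclei, was left unnamed, and one of 74 with markers of several classes was left as mixed. This rule was set with the counts in hand. Major histocompatibility class II genes were not counted as dendritic markers. Counts were summed per class and library with at least 10 cells and tested with edgeR 4.0.16 (TMM, quasi-likelihood, robust, Benjamini-Hochberg at 0.05, R 4.3.3), with limma 3.58.1 loaded and DESeq2 1.42.0 as an alternative. The edgeR tests were checked on simulated counts with 200 changed genes. At a log2 change of 1 they recovered 38.5% of these in Kupffer-like TLH cells, 5.5% in Lyz2 myeloid-like TLH cells and 8% in nuclei. The interaction recovered 0.5%, the fits across platforms 51% (Kupffer-like) and 27.5% (pDC-like), and the pDC-like class contrast 71.5%. At a change of 2 the interaction recovered 27.5% and the others 81 to 92.5%. A gene not called in a fit of low recovery can therefore still differ. Intervals of single libraries are exact Poisson at 95% and cover counting error only.

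All 9 members are named. Genes of the other lists are named where they passed the threshold in a strain test, at most 6 per direction, and the 3 genes most like each member by correlation are named. The members and lists were chosen with earlier results of these data known.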

Additional observations from a re-analysis of the deposited data

Results flagged for a closer look

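Cells and nuclei outside the 7 classes held counts of these factors. A cluster of 26 immune-enriched cells led by neutrophil genes, used in no comparison, held 60 Cebpb, 18 Spi1 and 11 Irf1 UMIs, or 1392, 418 and 255 CPM, each above the 3 UMIs that a count of 0 allows. A cluster of 74 nuclei with markers of several leukocyte types held 177 Cebpb, 60 Irf8, 12 Irf1, 11 Spi1 and 9 Stat5a UMIs. Erythroid cells of the same immune-enriched libraries held 12.2, 0.530 and 1.06 CPM of Cebpb, Spi1 and Irf1. In the nuclei cluster the levels were 333 CPM for Irf8, 66.5 for Irf1, 61.0 for Spi1 and 49.9 for Stat5a, against 2.96, 17.5, 0.821 and 14.2 CPM in hepatocyte-rich nuclei, while Cebpb was lower, at 981 against 1263 CPM. The strains were not compared in either cluster.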

How the results depend on the processing

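Values of the members' log2 fold changes were recomputed under up to 19 alternatives. For the 3 strain calls, 30 of 47 alternatives kept the call and 17 lost it, none with a change of direction. For the 16 class calls, 67 of 77 kept it, 8 lost it and 2 reversed. In Kupffer-like TLH cells the count of members called was 1 with DESeq2, the stricter cell filter or the 5% highest UMI counts left out, and 1 to 3 with a library left out. All genes called were 153 with DESeq2, 297 with the stricter filter, 185 without the highest UMI counts, 192 without genes higher in hepatocyte-rich cells, 2151 with the Kupffer list as library size and 263 to 639 with a library left out. In Lyz2 myeloid-like TLH cells marker classes called 1 member, and all genes called were 4 with DESeq2, 21 with no filter on low counts, 4 without hepatocyte genes and 8 to 94 with a library left out. In nuclei they were 5 with DESeq2, 24 with no filter, 54 with marker classes, 3 without hepatocyte genes and 5 to 103 with a library left out. The interaction called 1 member and 22 genes with marker classes and 3 genes with no filter. Across platforms 1 member was called. It was 0 with DESeq2, RLE size factors, no TLH libraries or the highest UMI counts left out, 2 with no filter or without hepatocyte genes, 3 with no immune-enriched libraries and 0 to 4 with a library left out. No filter called 26 class contrasts. The causes were not tested.

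Reversed values, none called unless said, were as follows. For Irf8 in Kupffer-like TLH cells 0.043 without the highest UMI counts. For Irf8 in Kupffer-like cells across platforms, -0.033 with DESeq2, -0.040 with RLE, -0.0019 with no filter, -0.15 to 0.032 with a library left out (below 0, and so reversed, in 6 of 10 cases), -0.12 with no immune-enriched libraries, -0.38 with marker classes and -0.045 without hepatocyte genes. Marker classes gave -0.034 for Irf1 in nuclei, 0.79 for Cebpb in T-like cells, 0.82 and 0.078 for Spi1 and Irf1 in the interaction, and in class contrasts 0.75 for Tcf4 and 0.22 for Irf8 in Lyz2 myeloid-like, -0.10 for Irf8 and -1.47 (called) for Irf1 in cDC-like and 0.64 for Irf8 in B-like cells. TLH alone gave -0.47 (called) for Cebpb in cDC-like and -1.51 for Spi1 in B-like cells, and immune-enriched libraries alone gave 0.66 for Tcf4 in cDC-like, 0.26 for Spi1 in pDC-like and 0.33 for Irf8 in B-like cells.

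The replicate numbers were shared by the strains as names only (r of same-numbered libraries -0.11, 0.02 and -0.01). A replicate block called 468 genes in Kupffer-like TLH cells, with 2 members, 61 in Lyz2 myeloid-like TLH cells and 10 in nuclei. Crossed pairs, chosen after seeing the data, called 725 in the first. The stricter filter could not be fitted for Lyz2 myeloid-like TLH cells and nuclei, nor marker classes for B-like cells across platforms, since too few libraries held 10 cells. Members under the count filter of a fit were not tested in it.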
